A study of Mus musculus with 24 samples.

Results

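Brown adipose tissue (BAT) of male C57Bl/6J mice was compared between a high-fat diet with the omega-3 fatty acids eicosapentaenoic and docosahexaenoic acid (EPA/DHA HFD) and a low-fat control diet. The comparison took the 8 BAT arrays of these diets, 4 per diet, out of 24 arrays in the series, and described them across all genes. The remaining arrays were BAT on a corn-oil high-fat diet and white adipose tissue (WAT) on all 3 diets. Per the labels, 4 mice per diet were picked as representative of their group's weight and blood lipids, so the arrays do not sample the full spread of a diet group. The labels name no transgene, deletion or other treatment. The age of the mice, the length of feeding and the composition of the diets are not given in the sources used here, and although every array used here is labelled as brown or white fat, the extraction text speaks of skeletal muscle. Nothing says how the pads were dissected.

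Brown fat burns fatty acids to make heat: uncoupling protein Ucp1 lets protons back across the inner mitochondrial membrane without making ATP. The tissue lies against the muscles of the neck and shoulders, and it also makes fatty acids from glucose. EPA and DHA are known as ligands of the PPAR nuclear receptors and are known to hold back SREBP-1, a factor that turns on genes of fatty acid synthesis.

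Ucp1, Cidea and Cox7a1, which mark brown adipocytes, stood near the top of the scale in all 8 arrays, on a log2 scale that starts near 7. Ucp1 ran from 13.72 to 14.41, against 7.08 to 10.63 in the WAT arrays. Cidea, a lipid droplet protein of brown fat, ran from 13.90 to 14.40, and Cox7a1, a cytochrome oxidase subunit of heart, muscle and brown fat, from 13.96 to 14.46. Other brown fat genes were dimmer: Prdm16, a transcription factor of brown fat identity, ran from 7.90 to 8.44, Dio2, the deiodinase that makes active thyroid hormone, from 7.38 to 8.92, the elongase Elovl3 from 7.11 to 8.98 and Ppargc1a from 9.10 to 12.19. Low-fat replicate 2 stood apart from the other BAT arrays. Its mean correlation with the other 11 arrays was 0.9638, against 0.9809 to 0.9881 for the rest, and 314 genes lay more than 1 log2 unit below the mean of the other low-fat arrays while 8 lay as far above. Among the genes farthest below, named after their values were seen, Neat1, a nuclear non-coding RNA, read 7.85 against 10.34 to 10.80 in the other low-fat arrays. The splicing kinase Clk1 read 7.34 there, against 9.54 to 9.87. Skeletal muscle genes were among them too: Tnnc2 read 8.91 against 11.09 to 12.17, and Ttn 7.59 against 9.45 to 10.27.

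Skeletal muscle transcripts varied more between the brown fat arrays than nearly any other genes. Of the 39 genes whose SD over the 12 BAT arrays exceeded 1 log2 unit, 30 were members of a list of 84 muscle fibre genes, of which 74 were measured. The mean log2 value of these 74 members, the muscle score, was 8.43, 7.83, 8.38 and 8.95 in low-fat replicates 1 to 4. In EPA/DHA replicates 1 to 4 it was 8.24, 9.24, 7.44 and 9.97. The groups overlapped: EPA/DHA held both the lowest and the highest array, and its SD was 1.11 against 0.46 (n = 4 each). In the 12 WAT arrays the score stayed between 7.26 and 7.31, so the EPA/DHA array of the lowest score lay just above white fat. The amount of muscle in a sample and the RNA made per fibre cannot be told apart in these bulk arrays.

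The same genes were high in the same arrays. Acta1, the actin of skeletal muscle, read 12.67, 11.07, 12.50 and 13.66 in low-fat replicates 1 to 4. With EPA/DHA it read 12.23, 13.93, 9.12 and 14.45, so that both ends of the 8 arrays were EPA/DHA arrays, and the lowest was under the 9.20 of the lowest WAT array. Mylpf, the regulatory light chain of fast fibres, read 10.67, 9.59, 10.70 and 11.74 on low-fat and 10.06, 12.53, 7.80 and 13.66 on EPA/DHA. Its 12 WAT values lay between 7.04 and 7.23. Myl2, the regulatory light chain of slow fibres and heart, read 8.67, 10.63, 7.07 and 12.43 in EPA/DHA replicates 1 to 4, the order of Acta1 and Mylpf. Myh7, the heavy chain of slow fibres, was near the floor, at 7.12, 7.32, 7.12 and 7.61. In 65 of the 74 members (87.8%) the EPA/DHA arrays ranked replicate 3, 1, 2, 4 from low to high, against 5.31% of the 13475 genes tested. EPA/DHA replicate 4 was the highest of the 8 arrays for 69 members (93.2%, against 12.5% of all genes). These counts describe arrays, not diets, since all members share the same 8 libraries.

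**Figure D1:**
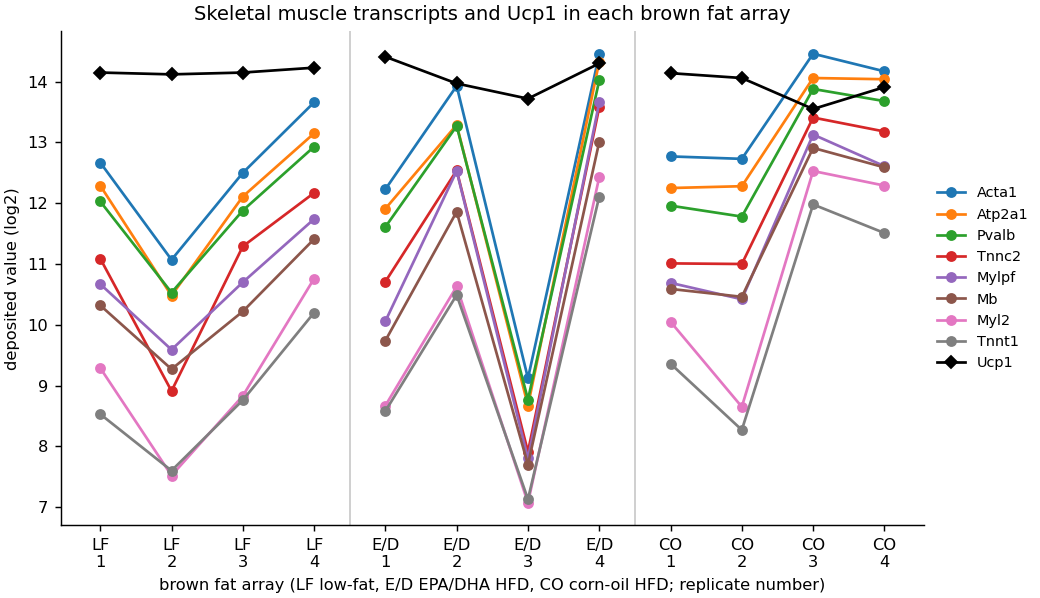
Deposited log2 value (y axis) of 8 skeletal muscle genes and of Ucp1 in each of the 12 BAT arrays (x axis), each point 1 array, grouped by diet. All 8 muscle genes are lowest in EPA/DHA replicate 3 (Acta1 at 9.12) and, among the low-fat and EPA/DHA arrays, highest in EPA/DHA replicate 4 (14.45), while Ucp1 stays between 13.55 and 14.41.

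Start regions of 3 of these genes are shown because the muscle genes moved together across arrays. Acta1 is a textbook target in muscle of serum response factor, which binds the CArG box. They are the 250 bases before the annotated start, 5′ to 3′ on the gene's strand, from RefSeq (GRCm38.p6), with the CArG box in capitals. Acta1 lies at chr8:123894776-123895025 on the minus strand, Myl3, the essential light chain of slow fibres, at chr9:110763428-110763677 on the plus strand, and Myh4, the heavy chain of the fastest fibres, at chr11:67237562-67237811 on the plus strand.
Acta1: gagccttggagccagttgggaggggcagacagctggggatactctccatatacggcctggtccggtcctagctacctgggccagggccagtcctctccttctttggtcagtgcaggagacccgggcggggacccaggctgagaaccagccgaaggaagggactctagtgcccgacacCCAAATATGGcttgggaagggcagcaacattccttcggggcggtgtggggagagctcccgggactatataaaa
Myl3: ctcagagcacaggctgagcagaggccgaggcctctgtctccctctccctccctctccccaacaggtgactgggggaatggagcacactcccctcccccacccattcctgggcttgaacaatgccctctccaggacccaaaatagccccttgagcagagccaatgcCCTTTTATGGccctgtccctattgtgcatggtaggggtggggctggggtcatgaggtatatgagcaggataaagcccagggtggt
Myh4: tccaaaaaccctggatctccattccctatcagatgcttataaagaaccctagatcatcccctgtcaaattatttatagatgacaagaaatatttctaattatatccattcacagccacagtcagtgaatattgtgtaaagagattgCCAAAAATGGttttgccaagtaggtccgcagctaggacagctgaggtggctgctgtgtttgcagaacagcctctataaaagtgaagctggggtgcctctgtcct
The box starts 73 bases before the start in Acta1, 85 in Myl3 and 104 in Myh4. A CArG box, searched by its name's usual 10-letter form, which reads alike on both strands, was in this window of 4 of the 53 muscle members with a promoter in the table (7.55%; the fourth is Ldb3), and of 169 of 10830 tested genes (1.56%). A match of letters is a description, and the remaining members lack these letters in this window only. Within EPA/DHA, Myl3 and Myh4 had the array order of Acta1: Myl3 read 8.58, 9.74, 7.90 and 11.64 in replicates 1 to 4, and Myh4 read 8.63, 9.82, 7.37 and 10.96. On low-fat the order differed, with Myl3 at 8.86, 8.64, 8.52 and 9.81 and Myh4 at 8.85, 7.92, 8.95 and 9.82, though replicate 4 was the highest for all 3 genes.

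No muscle gene's difference between the diets passed the test, and for most the standard error was larger than the difference. With limma over the 12 BAT arrays and Benjamini-Hochberg adjustment, EPA/DHA minus low-fat was -0.044 ± 1.03 (SE) for Acta1 (adjusted p = 0.998) and 0.33 ± 1.14 for Mylpf (adjusted p = 0.986). Of the 74 members 68 were higher with EPA/DHA, beside 49.8% of all genes, with a median of 0.31 beside 0.000 over all genes. Without EPA/DHA replicate 4 that median was -0.023, and without EPA/DHA replicate 3 it was 0.88, so single arrays set its sign and size. Without low-fat replicate 2 it was 0.18. None of the members passed the threshold, and 1 had an unadjusted p under 0.05: Myh8, the perinatal myosin heavy chain, which read 7.20, 8.0, 7.07 and 8.41 with EPA/DHA and 7.01 to 7.19 on low-fat (0.55 ± 0.24, adjusted p = 0.978). The probe used for Myl1, a light chain of fast fibres, read 12.13 to 14.51 in these BAT arrays but also 11.56 to 12.41 in WAT. Acta1 too lay above the floor in WAT, at 9.20 to 11.67. Mylpf, Tnnc2 (7.26 to 7.64) and Pvalb (7.11 to 7.56) were near the floor there.

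Some genes outside the muscle list were high in the same EPA/DHA arrays. Ckmt2, the mitochondrial creatine kinase of muscle and a member of the brown identity list, read 8.16, 9.72, 7.16 and 11.13 in EPA/DHA replicates 1 to 4 and 7.64 to 9.34 on low-fat. S100a8 and S100a9, the calgranulin subunits of neutrophils, were high in EPA/DHA replicates 2 and 4, the arrays of the highest muscle scores in that diet. S100a8 read 8.01, 9.24, 7.69 and 9.90, against 7.42 to 7.88 on low-fat (1.01 ± 0.40, adjusted p = 0.922). The corn-oil arrays of high muscle score, replicates 3 and 4 at 9.83 and 9.67, were not high in these genes: S100a8 read 7.75 and 7.61 there, and S100a9 7.43 and 7.30. Ucp1 did not follow the order of the score, though the array of the lowest score also had the lowest Ucp1: it read 14.41, 13.97, 13.72 and 14.30 in EPA/DHA replicates 1 to 4. With the muscle score as a covariate the difference was 0.82 ± 0.27 for S100a8 (adjusted p = 0.823) and 0.66 ± 0.23 for S100a9 (adjusted p = 0.865).

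Against that background, 1 gene passed the threshold between the diets. Of 13475 genes tested with 1 probe each, 0 were higher with EPA/DHA (0%) and 1 was lower (0.00742%) at an adjusted p under 0.05. At an unadjusted p under 0.05 there were 282 higher (2.09%) and 356 lower (2.64%) genes, together 4.73%. Counted by probe, 2 of 27168 passed (0.00736%), and 5.05% had an unadjusted p under 0.05. The low-fat and EPA/DHA arrays did not overlap for 354 genes (2.63%), of which 158 were higher (1.17%) and 196 lower (1.45%). Without low-fat replicate 2, 1013 genes (7.52%) had an unadjusted p under 0.05 and none passed the adjusted threshold.

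The gene that passed was Sema4b, which encodes semaphorin 4B, a membrane-bound guidance protein. It read 10.20, 10.37, 10.31 and 10.28 on low-fat and 9.85, 9.92, 9.84 and 9.70 with EPA/DHA. Every EPA/DHA array lay below every low-fat array, and Sema4b fell by 0.465 ± 0.054 (SE; limma, adjusted p = 0.0432). The corn-oil arrays lay between, at 10.05 to 10.21. EPA/DHA minus corn oil was -0.299 ± 0.054 (adjusted p = 0.574). A dimmer probe of Sema4b, near the floor with a mean of 7.24, gave 0.082 ± 0.047. An unnamed probe also passed, at 8.62 to 8.70 on low-fat and 8.06 to 8.31 with EPA/DHA (-0.477 ± 0.053, adjusted p = 0.0432). The Sema4b call was lost in 17 of 23 alternative fits, among them the fit with the muscle score as a covariate (-0.454, adjusted p = 0.0961), the fit of the 8 arrays alone (adjusted p = 0.387) and the fit without low-fat replicate 2 (-0.438, adjusted p = 0.104). The direction held in all 23.

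The next genes by p-value, none past the threshold, had tight groups and small differences. Tspan18, a tetraspanin that organises proteins in the cell membrane, read 9.32, 9.06, 9.28 and 9.12 on low-fat and 8.39, 8.79, 8.41 and 8.45 with EPA/DHA (-0.687 ± 0.088, adjusted p = 0.0582). The corn-oil arrays were at 8.62 to 8.70. Tspan18 was thus low in both high-fat groups, and EPA/DHA minus corn oil was -0.13 ± 0.088 (adjusted p = 0.999). Cab39l, a scaffold of the LKB1 kinase complex, read 8.89 to 9.01 on low-fat and 9.18 to 9.21 with EPA/DHA (0.238 ± 0.031, adjusted p = 0.0582), with corn oil between at 9.01 to 9.06. Septin11, a GTPase of the septin cytoskeleton, read 9.08 to 9.40 on low-fat and 9.62 to 9.79 with EPA/DHA (0.439 ± 0.074, adjusted p = 0.403), and corn oil read 9.66 to 9.89. Glrx2, the mitochondrial glutaredoxin, read 8.97 to 9.16 on low-fat and 9.25 to 9.37 with EPA/DHA (0.268 ± 0.045, adjusted p = 0.403). Its corn-oil arrays, 9.02 to 9.11, lay with the low-fat ones. A dimmer Glrx2 probe, of mean 7.79, gave -0.03 ± 0.087 for EPA/DHA minus low-fat, so the rise rests on the probe used.

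Of the other 10 genes among the 15 smallest p-values, 7 were lower with EPA/DHA and 3 higher, all without overlap and at adjusted p of 0.412 to 0.602. The lower ones were Chmp4b, a subunit of the ESCRT-III membrane scission complex (9.21 to 9.39 on low-fat, 8.89 to 9.07 with EPA/DHA), the endoplasmic reticulum chaperone Cnpy3, the ATP-gated channel P2rx6, the ubiquitin-conjugating enzyme Ube2e1, the growth factor Hdgf, the membrane fusion protein Ykt6 and the ubiquitin ligase Rnf4. Hdgf was the brightest of them, at 12.40 to 12.70 on low-fat and 12.16 to 12.30 with EPA/DHA (-0.328 ± 0.062). Dimmer Hdgf probes, of mean 8.34, 8.01 and 7.38, gave -0.178 ± 0.117, -0.063 ± 0.088 and -0.015 ± 0.079. Higher were the netrin receptor Unc5b, the scaffold protein Sash1 and the clock factor Arntl. Unc5b read 7.20 to 7.34 and 7.42 to 7.54, close to the floor, where differences on this scale can be compressed.

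**Figure D2:**
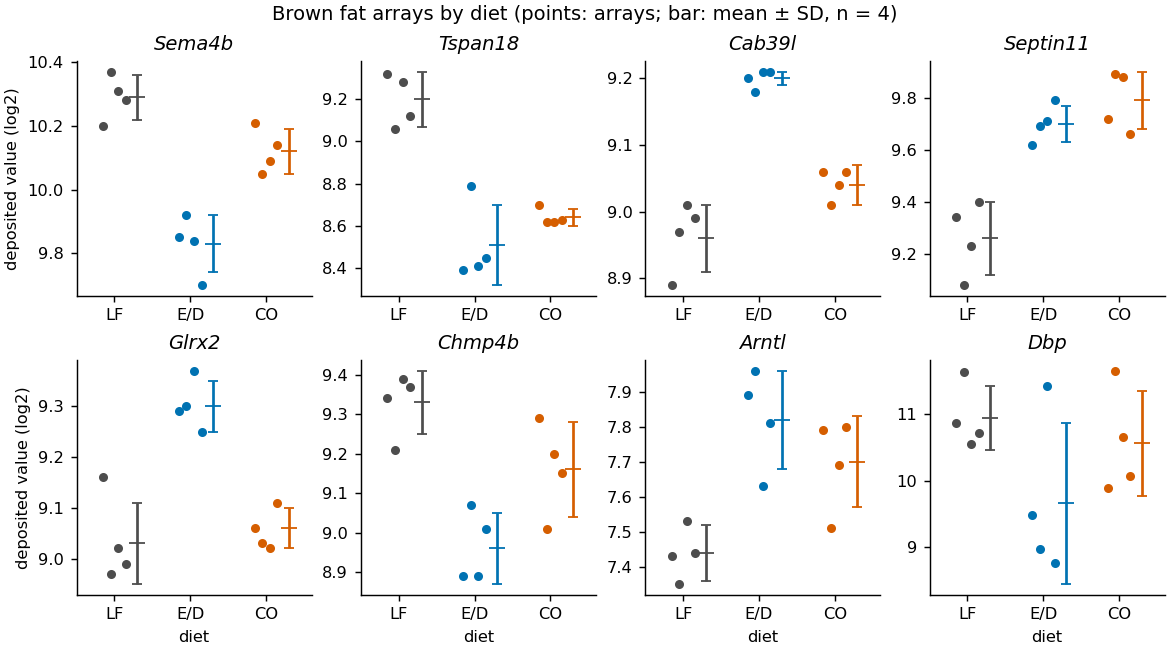
Deposited log2 value (y axis) of 8 genes in the BAT arrays by diet (x axis; LF low-fat, E/D EPA/DHA HFD, CO corn-oil HFD), each point 1 array and each bar the mean ± SD of 4 arrays. Sema4b lies at 10.20 to 10.37 on low-fat and 9.70 to 9.92 with EPA/DHA, while Dbp overlaps through EPA/DHA replicate 3 at 11.42.

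Clock genes differed from array to array within the EPA/DHA group. Arntl, which encodes the core activator BMAL1, read 7.43, 7.35, 7.53 and 7.44 on low-fat and 7.89, 7.96, 7.63 and 7.81 with EPA/DHA (0.384 ± 0.081, unadjusted p = 0.000586, adjusted p = 0.602). Dbp, a transcription factor that BMAL1 and CLOCK switch on, read 10.87, 11.63, 10.55 and 10.71 on low-fat and 9.48, 8.97, 11.42 and 8.77 with EPA/DHA (-1.28 ± 0.56, adjusted p = 0.978). EPA/DHA replicate 3, the array of lowest Arntl in its group, had the highest Dbp. The repressor Per2 read 8.82 to 9.80 on low-fat and 8.43 to 9.36 with EPA/DHA (-0.49 ± 0.34), and Nr1d1, the receptor REV-ERB alpha that represses Arntl, read 7.84 to 8.72 and 7.66 to 8.21 (-0.36 ± 0.20). In all, 11 of 14 tested clock genes were lower with EPA/DHA, with a median of -0.13 (-0.062 without low-fat replicate 1), and 1 in each direction had an unadjusted p under 0.05. The labels give no hour of sampling, and its part was not tested.

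Genes of brown fat identity and heat production gave no call between the diets. In the brown identity list 18 of 27 tested genes were lower with EPA/DHA and 9 higher, with a median of -0.064. None of the 44 lists held a gene past the adjusted threshold by limma. Counts at an unadjusted p under 0.05 stand beside 2.09% higher and 2.64% lower of all genes. Ucp1 differed by -0.064 ± 0.15, Cidea by -0.101 ± 0.095 and Cox7a1 by -0.019 ± 0.13. These 3 probes lie near the upper end of the scale, where differences can be compressed, so they show little about stability. Ppargc1a, the coactivator of mitochondrial genes, read 10.69, 9.60, 12.19 and 10.94 on low-fat and 10.64, 10.56, 9.83 and 9.10 with EPA/DHA, a wide overlap (-0.82 ± 0.61). Members with an unadjusted p under 0.05 were 2, both lower and without overlap. Clstn3, whose adipocyte form keeps lipid droplets small, read 12.18 to 12.52 on low-fat and 11.88 to 12.11 with EPA/DHA (-0.38 ± 0.13, adjusted p = 0.92). Slc25a20, the carrier that takes acylcarnitines into mitochondria, read 13.45 to 13.63 and 13.24 to 13.39 (-0.202 ± 0.061, adjusted p = 0.827).

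Respiratory chain genes split nearly evenly by direction. Complex I subunits split 17 higher to 17 lower of 34 (median -0.008, and -0.0010 without low-fat replicate 2), with 1 higher and 2 lower at an unadjusted p under 0.05. Complexes II to V split 21 to 14 of 35 (median 0.013), with 2 lower. Ndufc2, a complex I subunit, read 12.37 to 12.54 on low-fat and 12.06 to 12.34 with EPA/DHA (-0.235 ± 0.061, adjusted p = 0.683). A dimmer Ndufc2 probe, of mean 7.76, gave 0.11 ± 0.085. Atp5c1, the central stalk of ATP synthase, read 13.24 to 13.48 and 13.07 to 13.24 (-0.201 ± 0.064, adjusted p = 0.88). In mitochondrial fatty acid oxidation 17 of 24 genes were higher (median 0.031, and 0.0070 without low-fat replicate 2), yet 4 of the 5 with an unadjusted p under 0.05 were lower. They include Acot2, a thioesterase of the mitochondrial matrix, at 8.15 to 8.30 on low-fat and 7.85 to 8.05 with EPA/DHA (-0.276 ± 0.068, adjusted p = 0.657). Acaa2, the last enzyme of the beta-oxidation cycle, differed by -0.42 ± 0.16. The peroxisome list had 17 of 27 lower (median -0.057), with 4 lower at an unadjusted p under 0.05. Corn oil minus low-fat gave a peroxisome median of -0.216, so lower values were not particular to EPA/DHA. Its docking protein for enzyme import, Pex14, read 10.30 to 10.84 on low-fat and 9.93 to 10.08 with EPA/DHA (-0.46 ± 0.11, adjusted p = 0.657).

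Genes that make fatty acids and sterols were mostly lower. In lipogenesis 18 of 21 were lower (median -0.14), 3 of them at an unadjusted p under 0.05. Without EPA/DHA replicate 3 the median was -0.036, and without low-fat replicate 2 it was -0.092. The corn-oil diet, set against the same low-fat arrays, gave a lipogenesis median of -0.18, so lower values were not particular to EPA/DHA. Fasn, fatty acid synthase, read 9.31, 10.03, 9.47 and 9.47 on low-fat and 9.42, 9.23, 8.75 and 9.19 with EPA/DHA (-0.42 ± 0.17, adjusted p = 0.922). Acacb, which makes the malonyl-CoA that holds back fatty acid entry into mitochondria, read 12.50 to 12.77 and 11.90 to 12.64 (-0.40 ± 0.15, adjusted p = 0.92). Both overlapped, through 1 EPA/DHA array or more. Scd1, the stearoyl-CoA desaturase, was near the top of the scale in both groups (-0.048 ± 0.11), and Thrsp, a lipogenic activator, differed by -0.20 ± 0.17.

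In the cholesterol list 19 of 22 were lower (median -0.091), 4 at an unadjusted p under 0.05. The array that stood apart, low-fat replicate 2, was the highest low-fat array for Sqle and Fdps, and without it the median was -0.046. Corn oil minus low-fat gave a cholesterol list median of -0.192, in the same direction. Sqle, squalene epoxidase, read 8.76, 9.32, 8.88 and 8.82 on low-fat and 8.51, 8.40, 8.12 and 8.84 with EPA/DHA (-0.48 ± 0.15, adjusted p = 0.875). Fdps, which makes farnesyl diphosphate, read 11.54 in low-fat replicate 2 and 10.34 to 10.38 in the other low-fat arrays, against 9.81 to 10.54 with EPA/DHA. Hsd17b7, a sterol reductase, did not overlap, at 8.59 to 8.88 and 8.05 to 8.56 (-0.37 ± 0.11, adjusted p = 0.792). The elongase Elovl5, which lengthens polyunsaturated fatty acids, read 11.99 to 12.55 and 11.41 to 12.04 (-0.45 ± 0.14, adjusted p = 0.844).

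Triglyceride synthesis had 14 of 21 genes lower (median -0.069), 3 of them at an unadjusted p under 0.05. Lipolysis and droplet genes had 15 of 23 lower (median -0.045, and -0.024 without low-fat replicate 2), 1 of them at that level. Agpat2, which adds the second acyl chain to glycerol, read 12.88 to 13.51 on low-fat and 11.91 to 13.08 with EPA/DHA (-0.54 ± 0.23, adjusted p = 0.971). Lipe, hormone-sensitive lipase, read 9.57, 9.58, 9.54 and 9.27 on low-fat and 9.27, 9.06, 8.97 and 8.80 with EPA/DHA (-0.46 ± 0.11, adjusted p = 0.657), so the lowest low-fat and the highest EPA/DHA array were equal to 2 decimals. Adcy3, an adenylyl cyclase of the adrenergic pathway, read 8.75 to 9.28 and 8.27 to 8.67 (-0.54 ± 0.16, adjusted p = 0.798). Prkaca, the catalytic subunit of protein kinase A, read 11.74 to 11.97 and 11.53 to 11.67 (-0.210 ± 0.074, adjusted p = 0.92). A dimmer Prkaca probe, of mean 10.98, gave -0.072 ± 0.09. In the adrenergic list as a whole 10 of 20 were lower (median -0.014, and -0.050 without low-fat replicate 2), 2 of them at an unadjusted p under 0.05. A mixed list of nuclear receptors, adipogenic factors and textbook PPAR targets had 15 of 21 lower (median -0.079, and -0.027 without low-fat replicate 2). Its 1 member at that level was the adipogenic factor Cebpb (-0.53 ± 0.23, adjusted p = 0.971). The insulin kinase Akt2 read 8.52 to 8.69 and 8.11 to 8.47 (-0.344 ± 0.082, adjusted p = 0.657).

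**Figure D3:**
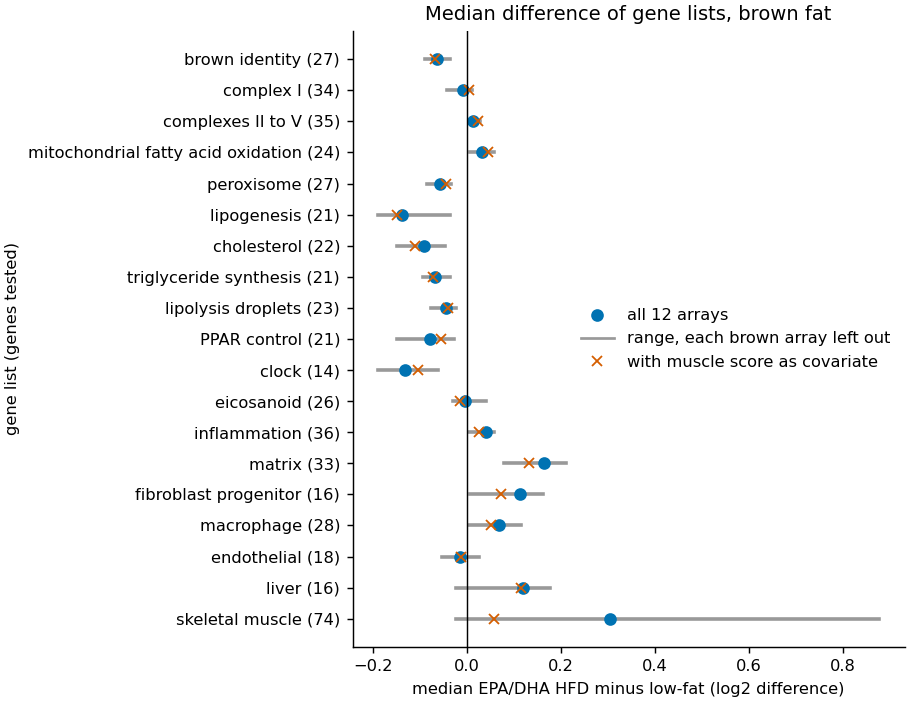
Median EPA/DHA minus low-fat difference in log2 units (x axis) of 19 gene lists (y axis, number of genes tested in brackets): the point uses all 12 BAT arrays, the line spans the medians when each BAT array in turn is left out, and the cross is the fit with the muscle score as covariate. The skeletal muscle median runs from -0.023 to 0.88 over these leave-outs, and the lipogenesis median from -0.19 to -0.036.

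Matrix and fibroblast genes were mostly higher with EPA/DHA. In the matrix list 29 of 33 were higher (median 0.16), none at an unadjusted p under 0.05. Without EPA/DHA replicate 4 the median was 0.079. Col3a1, the fibrillar collagen of soft tissue, read 7.74, 8.42, 7.57 and 8.08 on low-fat and 8.14, 8.30, 8.26 and 8.99 with EPA/DHA (0.47 ± 0.23). Lum, lumican, read 7.97 to 8.26 on low-fat and 8.09, 8.72, 8.22 and 9.09 in EPA/DHA replicates 1 to 4 (0.38 ± 0.20). Its high arrays, replicates 2 and 4, were also those of the highest muscle scores. In the fibroblast list 13 of 16 were higher (median 0.11), and 1 in each direction had an unadjusted p under 0.05. The mesenchymal progenitor marker Pdgfra read 7.98 to 8.15 on low-fat and 8.25 to 8.61 with EPA/DHA without overlap (0.36 ± 0.11, adjusted p = 0.803). With the muscle score as a covariate the matrix median was 0.13 and the fibroblast median 0.073. Without EPA/DHA replicate 4 the fibroblast median was 0.0070. Corn oil minus low-fat gave medians of 0.192 for the matrix list and 0.159 for the fibroblast list, so higher values were not particular to EPA/DHA.

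Some inflammation genes were higher with EPA/DHA by value, while medians of the immune lists were small. Macrophage markers were higher in 21 of 28 (median 0.069, 0.0050 without EPA/DHA replicate 4 and 0.12 without low-fat replicate 2). The 1 member at an unadjusted p under 0.05 was Mpeg1, perforin-2 of macrophages, which read 7.47 to 7.90 on low-fat and 7.87 to 8.17 with EPA/DHA (0.34 ± 0.10, adjusted p = 0.827). Inflammation genes were higher in 22 of 36 (median 0.040, and 0.0040 without EPA/DHA replicate 4). At an unadjusted p under 0.05, 5 of the 36 were higher and 0 lower. The groups overlapped for S100a8 and S100a9 and did not for Ccl11, Cxcl13 and Hp. Granulocyte markers were higher in 5 of 9 (median 0.028), 2 of them at that level, the same S100a8 and S100a9. The eotaxin Ccl11 read 8.38 to 8.79 and 8.86 to 9.01 (0.278 ± 0.083, adjusted p = 0.812). A dimmer Ccl11 probe, of mean 7.8, gave 0.066 ± 0.089. Corn oil minus low-fat gave 0.284 ± 0.083 for the brighter Ccl11 probe. Enzymes and receptors of eicosanoids, the signalling lipids made from omega-6 and omega-3 fatty acids, split 13 to 13 of 26 (median -0.005, and 0.040 without low-fat replicate 2), and none had an unadjusted p under 0.05. Interferon and MHC class I genes were higher in 19 of 31 (median 0.028, and -0.020 without low-fat replicate 4), 1 of them, Bst2, at an unadjusted p under 0.05. Liver genes were higher in 14 of 16 (median 0.12), 1 of them, Hpx, at that level, and the major urinary protein Mup2 was high in single arrays, at 7.75, 11.63, 9.36 and 10.22 with EPA/DHA and 7.61 to 9.12 on low-fat. Without EPA/DHA replicate 2, the array of the highest Mup2, that median was -0.023. The Mup genes are near-identical copies, so which of them the probe read is uncertain.

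Adipokines that follow fat mass gave no call between EPA/DHA and low-fat, though Hp was higher with EPA/DHA without overlap. Lep, leptin, read 9.76, 8.36, 7.79 and 9.05 on low-fat and 9.33, 8.63, 9.55 and 9.25 with EPA/DHA (0.45 ± 0.44, adjusted p = 0.986). The corn-oil arrays read 10.19 to 11.83. Mest, an imprinted gene of growing fat, read 7.06 to 7.19, 7.18 to 7.22 and 7.30 to 7.49 on low-fat, EPA/DHA and corn oil. Adipoq, adiponectin, read 13.41 to 13.59 and 13.41 to 13.74 (0.071 ± 0.092). Hp, haptoglobin, read 11.88, 11.59, 11.00 and 12.20 on low-fat and 12.25 to 12.56 with EPA/DHA (0.74 ± 0.20, adjusted p = 0.683). Corn oil gave 12.31 to 12.42 for Hp, beside the EPA/DHA arrays.

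The direct test of EPA/DHA against corn oil in BAT called 0 of 13475 genes (0%) by limma, and 671 (4.98%) had an unadjusted p under 0.05. Both diets were set against the same 4 low-fat arrays, so their differences are given side by side only. Lep differed from low-fat by 0.45 with EPA/DHA and 2.43 ± 0.44 with corn oil, and from corn oil by -1.98 ± 0.44 with EPA/DHA (adjusted p = 0.612). For Plin4, a droplet coat protein, the values were -0.18 and 0.42 ± 0.12, and EPA/DHA minus corn oil was -0.61 ± 0.12 (adjusted p = 0.574). Glrx2 gave 0.268 and 0.020 ± 0.045, with 0.247 ± 0.045 between the high-fat diets (adjusted p = 0.574). Sema4b gave -0.465 and -0.166 ± 0.054. Septin11 and Tspan18 ran alike in the 2 high-fat diets by value, at 0.439 and 0.526 for Septin11 and -0.687 and -0.555 for Tspan18. Pex14 gave -0.462 and -0.657, Clstn3 -0.38 and -0.634, Elovl5 -0.451 and -0.714, and Adcy3 -0.54 and -0.685. The median of the muscle list was 0.31 with EPA/DHA and 0.71 with corn oil. List medians of the same sign in both were clock (-0.133 and -0.102), brown identity (-0.064 and -0.078) and macrophage (0.069 and 0.123). Those of liver (0.119 and -0.049) and mitochondrial fatty acid oxidation (0.031 and -0.054) had opposite signs.

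Whether the diet effect differed between brown and white fat was tested as an interaction over 24 arrays, fitted as independent. The labels speak of 4 mice picked per diet, and each tissue has 4 arrays per diet. BAT and WAT arrays may therefore well come from the same mice, though which array goes with which is not settled. The interaction p-values take no account of such sharing. Of 14270 genes 1 was called (0.00701%), and 911 (6.38%) had an unadjusted p under 0.05. The called gene was Tspan18, with EPA/DHA minus low-fat of -0.687 in BAT and 0.083 in WAT, a difference of 0.77 ± 0.12 (adjusted p = 0.0165). In WAT it read 7.41 to 7.49 on low-fat and 7.42 to 7.76 with EPA/DHA, near the floor of the scale, where a fall has little room to show. The next genes did not pass. Prkaca differed by -0.210 in BAT and 0.33 in WAT (interaction 0.541 ± 0.099, adjusted p = 0.121). Pdhb, a subunit of pyruvate dehydrogenase, differed by -0.31 and 0.69 (interaction 1.002 ± 0.185, adjusted p = 0.121), and its WAT arrays did not overlap, at 9.61 to 9.98 on low-fat and 10.23 to 10.66 with EPA/DHA. Dimmer Pdhb probes, of mean 10.88 and 8.22, went the other way in BAT (0.123 ± 0.155 and 0.126 ± 0.069). The lower BAT value thus rests on the probe used. Rprml was lower in both tissues by value, by less in BAT (-0.118 ± 0.047) than in WAT (-0.571 ± 0.060). In BAT it read 7.25 to 7.39 on low-fat and 7.18 to 7.21 with EPA/DHA, near the floor, where a fall has little room to show. The lipogenesis median was -0.14 in BAT and 0.39 in WAT, and the brown identity median -0.064 and 0.20. Fasn differed by -0.42 in BAT and 0.31 in WAT, with an interaction of 0.73 ± 0.29 that did not pass (adjusted p = 0.676). Arntl and Dbp had the same direction in the 2 tissues: Arntl differed by 0.384 and 0.37 ± 0.11, and Dbp by -1.28 and -1.55 ± 0.57. The interaction call of Tspan18 was lost without BAT low-fat replicate 1 or 3 or BAT EPA/DHA replicate 3 or 4, and with the replicate number as a block, where 0 genes passed. Only BAT arrays were left out in turn, so dependence on single WAT arrays was not tested.

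**Figure D4:**
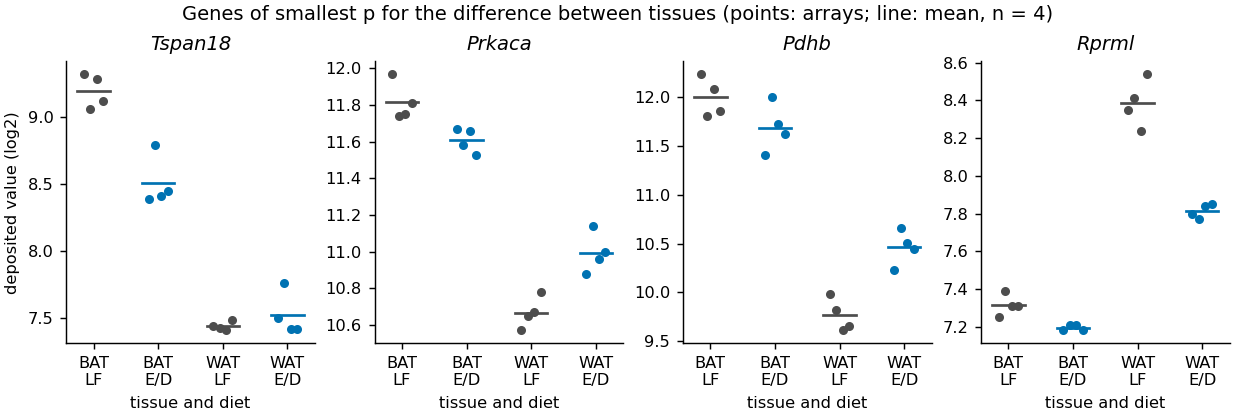
Deposited log2 value (y axis) of the 4 genes with the smallest interaction p in BAT and WAT on the low-fat (LF) and EPA/DHA (E/D) diets (x axis), each point 1 array and each line the mean of 4. Tspan18 differs by -0.687 in BAT and 0.083 in WAT, and Rprml by -0.118 and -0.571.

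**Figure D5:**
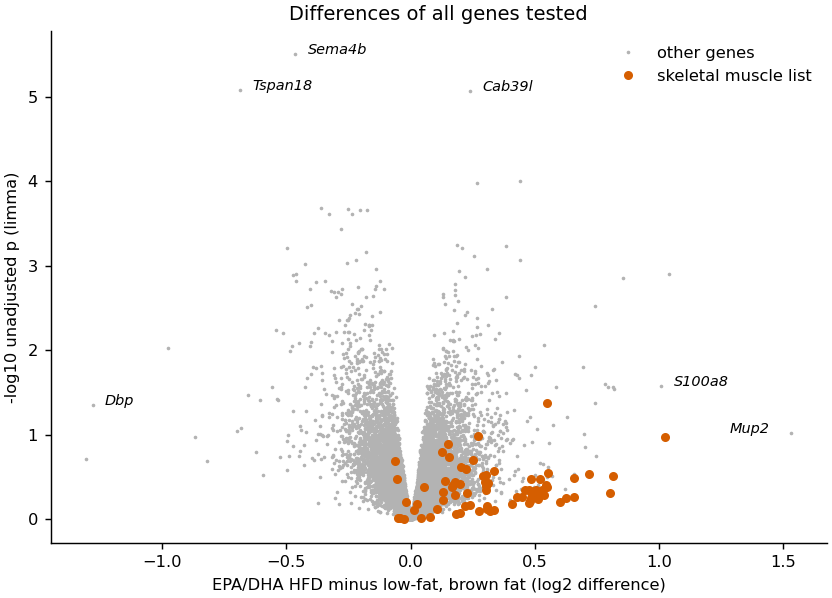
EPA/DHA minus low-fat difference in log2 units (x axis) against -log10 of the unadjusted limma p (y axis) for the 13475 genes tested in BAT, with the 74 muscle genes in orange. Muscle genes reach large differences at large p-values, Sema4b has the smallest p, and Mup2 the largest positive difference, 1.53 ± 0.84, at an unadjusted p of 0.0938.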

How the data were processed

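RNA of 12 BAT and 12 WAT samples had been read on 1-colour Illumina mouse arrays. The deposited log2 values per probe were made by the authors with lumi 2.18.0, per the submitters' processing notes. The values themselves show quantile normalisation, since the sorted values of any pair of arrays match within 0.0069. A shift in an array's overall signal is therefore hidden. Whether the scale is plain log2 or variance-stabilised is not given in the sources used here, so small differences near the floor can be compressed. Background handling and detection calls were not used here.

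Of 45281 probes, 34885 had 1 gene symbol in the platform annotation, 18 had several and 10378 none; 34818 matched a RefSeq gene (GRCm38.p6). Samples were grouped by title. Limma 3.58.1 (R 4.3.3; lmFit, eBayes, two-sided) was fitted to the 12 BAT arrays with 1 mean per diet, on 27168 probes whose mean lay above the 40th percentile (7.11). Each of 13475 genes took its probe of highest mean. P-values were adjusted by Benjamini-Hochberg over the kept probes, with a threshold of 0.05. The interaction used 24 arrays and 29493 probes. The code was checked on simulated data. Where nothing says arrays are separate mice, p-values measure the spread between these arrays only. Precision is limited by 4 arrays per diet.

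The comparison and the 44 gene lists were chosen with earlier results of these data known, so lists get counts and medians and no test. Named genes are those past the threshold, the 15 smallest p-values, up to 2 list members with an unadjusted p under 0.05, 8 standing markers, the 8 brightest muscle genes and the 4 of largest SD, and the 5 smallest adjusted p of the interaction and of EPA/DHA against corn oil. Genes named outside this rule were chosen after their values were seen: list members that show the array pattern, clock and matrix genes, and the genes of the closing section. Alternatives were the filter, the normalisation, the prior, array weights, the arrays fitted, a replicate block, the muscle score as covariate, the mean over probes, and each BAT array left out. WAT arrays were not left out.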

Additional observations from a re-analysis of the deposited data

Results flagged for a closer look

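In groups of 4, a lowest or highest array was set apart from the other three by more than Dixon's 95% limit for 5 of 166 groups checked, while chance sets apart about 1 in 20. Agpat1, an acyltransferase of triglyceride synthesis, read 7.93 in EPA/DHA replicate 1 and 7.77 to 7.78 in the others. Il6st, the shared receptor of interleukin 6 signals, read 8.15 in low-fat replicate 2 against 8.02 to 8.04. Lipe read 9.27 in low-fat replicate 4 against 9.54 to 9.58. Mest read 7.22 in EPA/DHA replicate 4 against 7.18 in the others, a gap of no size near the floor. Tspan18 read 8.79 in EPA/DHA replicate 2 against 8.39 to 8.45, which narrows its difference from low-fat. The muscle score itself was not set apart in either group.

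The EPA/DHA effect on Tspan18 differed between tissues, by 0.77 ± 0.12 log2 units (WAT minus BAT; limma interaction, adjusted p = 0.0165). A second Tspan18 probe, mean 8.29 in BAT, gave -0.16 ± 0.099 in BAT where the brighter one gave -0.687 ± 0.088.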

How the results depend on the processing

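The number of genes past the threshold between EPA/DHA and low-fat, 1 as reported, was 2 with no filter, with a filter at the 60th percentile or with array weights, and 13 (25 probes) when all 24 arrays shared 1 spread. It was 0, and 0 probes, with a trend and robust prior, with the 8 arrays alone, with the replicate block and with the muscle score as covariate, and 0 genes with the mean over a gene's probes. Leaving out 1 BAT array gave 0 to 2 genes and 0 to 3 probes. EPA/DHA against corn oil gave 3 genes with 24 arrays sharing 1 spread. The interaction gave 2 genes with array weights or the probe mean, 0 with the replicate block and 0 to 2 with 1 BAT array left out. Whether replicate numbers pair the arrays was not settled. Correlations of deviations were -0.23, -0.37, -0.13 and 0.40 for replicates 1 to 4, too few values to exclude pairing. Under the block Sema4b had a limma adjusted p of 0.437.

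Of 81 named genes, 70 kept their direction in all 23 alternatives. The other 11 changed sign and never neared the threshold (lowest adjusted p 0.837). With 1 array left out, Acta1 ran from -0.716 to 1.061, Tnni2 from -0.784 to 1.068, Atp2a1 from -0.718 to 1.172, Pvalb from -0.622 to 1.13, Tnnc2 from -0.481 to 1.409, Mylpf from -0.548 to 1.405, Mb from -0.537 to 1.233, Myl2 from -0.309 to 1.477, Tnnt1 from -0.04 to 1.618, Scd1 from -0.112 to 0.04 and Ucp1 from -0.168 to 0.064. Array weights gave Atp2a1 -0.233, Pvalb -0.123 and Tnnc2 -0.028. The muscle covariate gave Atp2a1 -0.586, Pvalb -0.531, Tnnc2 -0.377, Mylpf -0.361, Mb -0.367 and Myl2 -0.135. Of 44 list medians, 24 kept their sign whichever array was left out. The causes were not tested. With 4 arrays a group, differences below the spread of a gene were not detectable, and some above it did not pass either. Septin11 differed by 0.439, with SDs of 0.14 on low-fat and 0.07 with EPA/DHA, at a limma adjusted p of 0.403.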

Other observations

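Several genes outside the naming rule, chosen after their values were seen, had groups that did not overlap. The differences of Cyp2b10 and Xlr4a were also larger than those of the genes of smallest p. Cyp2b10, a liver cytochrome P450 that the receptor CAR switches on, read 7.22, 7.18, 7.38 and 7.11 on low-fat and 8.76, 8.20, 7.51 and 7.86 with EPA/DHA (0.86 ± 0.20, limma adjusted p = 0.657). Its corn-oil mean was 7.12, at the floor, and in WAT the difference was 0.035 ± 0.15. Xlr4a, an X-linked gene of a multicopy family, read 7.78 to 8.19 on low-fat and 8.61 to 9.64 with EPA/DHA (1.04 ± 0.24, adjusted p = 0.657), and in WAT it differed by 1.07 ± 0.28. Near-identical copies make its identity uncertain.

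P2rx5, an ATP-gated channel used as a surface marker of brown adipocytes, read 10.44 to 10.55 on low-fat and 10.80 to 11.01 with EPA/DHA (0.439 ± 0.097, adjusted p = 0.63). Car5b, a mitochondrial carbonic anhydrase, read 9.21 to 9.61 and 8.78 to 9.13 (-0.50 ± 0.11, adjusted p = 0.602), with a corn-oil mean of 8.71.

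Insig1, which holds SREBP in the endoplasmic reticulum, gave different results by probe. Its brightest probe differed by -0.014 ± 0.15. A dimmer probe read 9.19 to 9.69 on low-fat and 8.59 to 8.96 with EPA/DHA (-0.66 ± 0.12, adjusted p = 0.412), and another read 9.45 to 9.89 and 8.50 to 9.14 (-0.85 ± 0.15, adjusted p = 0.412). Which transcripts these probes read was not tested. Hspa1a, a heat shock protein, had the most negative mean difference of all genes tested, -1.31 ± 0.94, with arrays at 9.51 to 11.33 on low-fat and 7.48 to 10.61 with EPA/DHA.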
